A study of Saccharomyces cerevisiae with 30 samples.

Results

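Break-seq maps DNA ends in the genome of budding yeast (Saccharomyces cerevisiae), and the libraries described here ask what depletion of Mot1 adds to the break map of cells that already lack nuclear INO80. The comparison holds 4 of the 30 samples of the series, 2 libraries of INO80-FRB Mot1-FRB cells and 2 libraries of INO80-FRB cells, all without hydroxyurea (HU). All 4 were grown in rich medium to log phase and received rapamycin for 3 h before harvest, so the INO80-FRB libraries carry the INO80 depletion too. An FRB tag lets rapamycin tether the tagged protein to an anchor that carries it out of the nucleus, a method known as anchor-away. The series has 16 Break-seq libraries, and the same pair of genotypes with 100 mM HU (2 libraries each), WT-FRB cells and Mot1-FRB cells are used below only for the values they hold at the same places. All were treated with rapamycin. No Break-seq library without rapamycin was used here, a peak list holds no measure of protein, and the labels do not say whether replicates came from separate cultures, so the depletion itself was not checked and the spread between libraries may be technical.

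Mot1 is an ATP-dependent enzyme that strips the TATA-binding protein TBP from DNA and so moves it between promoters. INO80 is a chromatin remodeling complex that slides nucleosomes, acts on the histone variant H2A.Z at gene promoters and works at replication forks. Both restrain transcription that starts at the wrong places, and the title of the series sets INO80 against promiscuous transcription at replication origins. Broken DNA in yeast is often seen in repeated sequence, such as Ty retrotransposons (mobile elements that copy themselves through RNA), the Y' elements at chromosome ends that encode helicases, the ribosomal DNA array, and the many copies of the mitochondrial genome.

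The peaks of the 4 lists merged into 401 regions, each joined from peaks that overlap by at least 1 bp. A region was gained where both INO80-FRB Mot1-FRB lists and neither INO80-FRB list held a peak, lost where the reverse was true, and shared where all 4 held one. There were 9 gained regions (2.24% of 401), 22 lost regions (5.49%) and 172 shared regions (42.9%). The other 198 regions were in another combination of lists, most often in 1 library alone. Regions found in just 1 library of each group numbered 13 for replicate 1 of both and 4 for replicate 2 of both. They numbered 9 for INO80-FRB Mot1-FRB replicate 2 with INO80-FRB replicate 1, and 6 for the reverse. The 9 gained regions lay within the range of these mixed pairs, and the 22 lost regions lay above it. Regions that separated the groups were thus fewer than shared ones, and fewer than those found in 1 library alone. Of the lost regions 9 lay on mitochondrial DNA, whereas no gained region lay there.

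Peak numbers were close. The INO80-FRB Mot1-FRB lists held 310 and 310 peaks, against 365 and 318 in the INO80-FRB lists. Both lists of the double depletion were shorter, by a mean of 31.5 peaks (8 without INO80-FRB replicate 1 and 55 without INO80-FRB replicate 2), and the exact two-sided permutation test gave p = 0.333 (n = 2 each). That is the smallest p that 2 libraries against 2 can give, so no test between these groups alone could pass 0.05, and adjusted p-values over the 9 tests of this kind ran from 0.6 to 1. Read totals are not in the lists. The lowest local background that could be recovered from the peaks, a proxy for depth, was 11.4 and 21.2 reads in INO80-FRB Mot1-FRB libraries and 9.39 and 8.11 reads in INO80-FRB libraries. It moved with the groups, and its part in the results below was not tested.

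**Figure D1:**
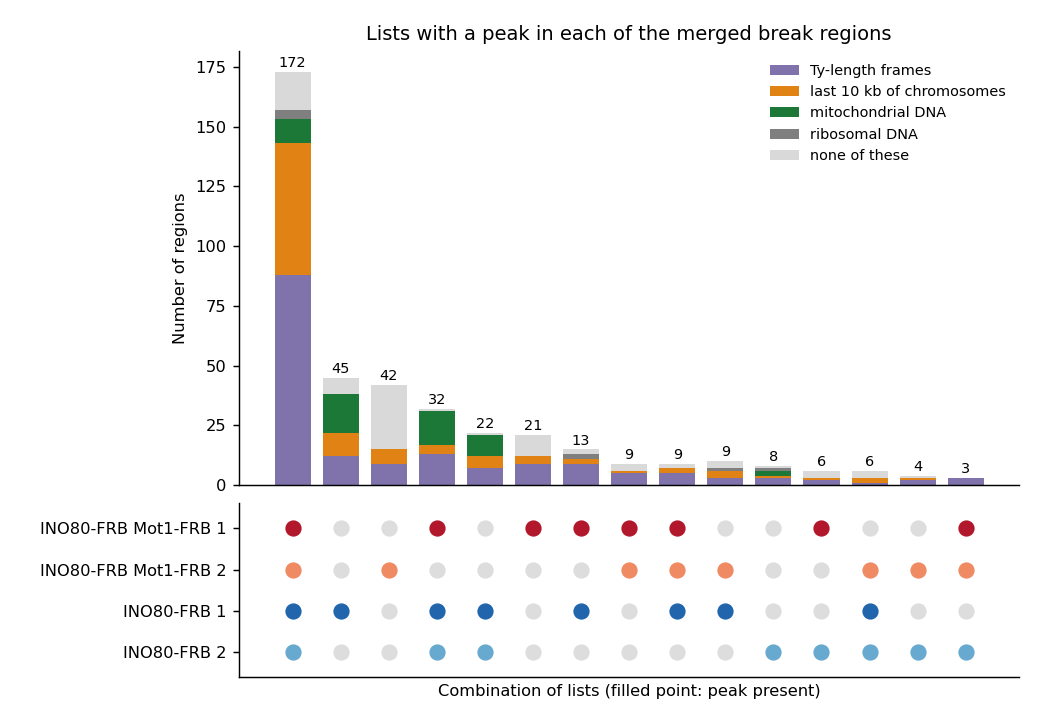
Number of merged break regions (y axis) for each combination of lists that held a peak (filled points below the bars, INO80-FRB Mot1-FRB libraries in the upper rows). Bars are coloured by class of DNA, and a region in more than 1 class is stacked in each; the number of regions stands above the bar, with 172 in all 4 lists, 22 lost and 9 gained.

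The library that stood apart was INO80-FRB Mot1-FRB replicate 2. The Jaccard index, the shared base pairs of 2 lists over their joint base pairs, was 0.59 between the INO80-FRB Mot1-FRB libraries and 0.67 between the INO80-FRB libraries. Replicate 1 of the double depletion had an index of 0.615 with INO80-FRB replicate 1 and 0.646 with INO80-FRB replicate 2. Replicate 2 had 0.495 and 0.521 with the same libraries. INO80-FRB Mot1-FRB replicate 1 thus overlapped each INO80-FRB list more than it overlapped its own replicate. The mean index within groups was 0.63 and between groups 0.569, a difference of 0.0606 (exact one-sided permutation p = 0.333, adjusted p = 0.6, n = 2 each).

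The same library shows in the combinations of lists. In 32 regions the peak was missing from INO80-FRB Mot1-FRB replicate 2 alone, and 14 of these were mitochondrial. In 42 regions only that library held a peak, of which 27 lay outside the 4 classes of Ty-length frames, chromosome ends, ribosomal DNA and mitochondrial DNA (19.7% of all 401 regions do), 21 within 500 bp of an Orc5 site (a place bound by this subunit of the origin recognition complex without rapamycin; 16.5% of all 401) and 19 at promoters, the 500 bp before a gene (13.7% of all 401). The other single-library sets were 21 regions in INO80-FRB Mot1-FRB replicate 1, 45 in INO80-FRB replicate 1 and 8 in INO80-FRB replicate 2. Peaks outside the 4 classes numbered 39 and 58 in the INO80-FRB Mot1-FRB libraries and 37 and 29 in the INO80-FRB libraries. With HU the order was the other way, 32 and 23 against 59 and 66.

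Among genes with a peak in INO80-FRB Mot1-FRB replicate 2 alone (22 genes), several are well known, and they are named here after their values were seen. URA3, which makes uracil, had a peak of fold 2.22, where fold is the authors' height of a peak over its local background. ADH1, the main fermentative alcohol dehydrogenase, had fold 2.23. ASF1, a histone chaperone, had fold 1.94, and SLD5, a subunit of the GINS complex that unwinds DNA at forks, had fold 2.08. These were single-library peaks of low height, with no counterpart in the replicate. The genes with a peak in 1 library alone were 9 in INO80-FRB Mot1-FRB replicate 1, 7 in INO80-FRB replicate 1 and 2 in INO80-FRB replicate 2.

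The 9 gained regions were low, and narrower than shared regions. Their median width was 257 bp, against 383 bp for all 401 regions and 772 bp for shared regions. It was 282 bp for lost regions and 262 bp for the 198 regions in another combination of lists. Width thus separated shared regions from the rest and did not set apart the gained regions. In the list of INO80-FRB Mot1-FRB replicate 1 their scores had a median percentile of 23.5, with 1 of 9 above the median of the list. In replicate 2 the median percentile was 34.2, with 3 of 9 above. In 6 of 9 a peak of both INO80-FRB lists lay within 1 kb, so most gained regions were stretches beside a place that was broken in both groups.

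Of the gained regions 5 of 9 lay in Ty-length frames (the class holds 171 of all 401 regions), 1 at a chromosome end, 0 on mitochondrial DNA and 3 outside the 4 classes. The highest, at chromosome XII, 217111 to 217630 (build sacCer3), lay inside the reading frame YLR035C-A. That frame has no gene name and is 3468 bp long, shorter than the Ty-length class. The class is set by length, so a shorter Ty frame counts as outside it, and lying outside the 4 classes does not make a region unique sequence. The region had fold 2.72 and 2.34 in the INO80-FRB Mot1-FRB libraries. Stretches of the same frame on both sides were shared by all 4 lists, and the nearest INO80-FRB peaks were 212 and 260 bp away. The frame was thus broken in every library, and only its middle stretch separated the groups.

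A pair of gained regions lay several kilobases or more from any INO80-FRB peak. The first lay on chromosome VI, 222980 to 223201, between RRT5 (21 bp away) and RPL29 (57 bp away), a gene for a protein of the large ribosomal subunit. It overlapped an Orc5 site and a promoter, and its fold was 2.50 and 1.95 in the INO80-FRB Mot1-FRB libraries. The nearest INO80-FRB peaks were 79443 and 79449 bp away, and none of the other 12 Break-seq lists held a peak there. The second lay at the left end of chromosome IV, 948 to 1143, 659 bp from COS7, a subtelomeric gene of the COS family. It had fold 2.58 and 2.21 in the INO80-FRB Mot1-FRB libraries, the nearest INO80-FRB peaks were 4892 and 512890 bp away, and no other list held a peak. Both were peaks of few reads: 30 and 46 recovered reads at the RRT5 region, over backgrounds of 11.4 and 23.0.

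The third gained region outside the 4 classes lay on chromosome XII, 1067258 to 1067473, in YLR464W and the overlapping YRF1-4, a Y' helicase gene. It is repeated sequence all the same: it lay just past the limit of 10 kb that defines the chromosome ends here, and that limit rests on chromosome lengths read from the highest listed coordinate. Its fold was 1.85 and 2.06 in INO80-FRB Mot1-FRB libraries. It also held peaks in both INO80-FRB Mot1-FRB lists with HU (2.61 and 2.75) and both WT-FRB lists without HU (2.42 and 1.96), and in neither INO80-FRB list with HU. Because Y' elements are near-identical copies, reads cannot be assigned to 1 copy with certainty.

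The 5 gained stretches in Ty-length frames fell in 4 frames. YDR034C-D had fold 2.37 and 2.29 in the INO80-FRB Mot1-FRB libraries at chromosome IV, 516167 to 516423. YJR027W had 1.97 and 1.87 at chromosome X, 475253 to 475512, and YDR210W-B had 1.92 and 1.77 at chromosome IV, 875736 to 876017. YPR158W-B held a pair of them on chromosome XVI, at 847724 to 847983 with 1.87 and 1.81 and at 848040 to 848292 with 1.82 and 1.75. Each of these frames also held stretches shared by all 4 lists. With HU, 3 of the 5 stretches (all but those of YDR034C-D and the first of YPR158W-B) had a peak in at least 1 list of the 2 genotypes. The stretch of YJR027W had one in INO80-FRB Mot1-FRB replicate 1 alone (fold 2.11), and that of YDR210W-B in all 4 lists with HU. The second of YPR158W-B went the other way, with peaks in both INO80-FRB lists (1.87 and 2.19) and in neither INO80-FRB Mot1-FRB list.

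The 22 lost regions were of 3 kinds. Mitochondrial DNA held 9 (40.9%, against 12.7% of all 401 regions and 5.81% of shared regions), Ty-length frames held 7 (31.8%, against 42.6% of all) and chromosome ends held 5 (22.7%, against 23.9%). The 1 lost region outside these classes is described next. Their median width was 282 bp, and their scores had a median percentile of 56.4 in INO80-FRB replicate 1 and 33.7 in INO80-FRB replicate 2. A peak of either INO80-FRB Mot1-FRB list lay within 1 kb of 15 of the 22, and a peak of both lists within 1 kb of 10.

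The lost region outside the 4 classes lay on chromosome VII, 707333 to 707573, 37 bp before YGR109W-A and YGR109W-B, the reading frames of a Ty3 retrotransposon, beside a tRNA gene and at an Orc5 site. Ty3 is known to insert just upstream of tRNA genes. The region had fold 2.89 and 2.96 in the INO80-FRB libraries, from 29 and 26 recovered reads over backgrounds of 9.39 and 8.11, and no peak in INO80-FRB Mot1-FRB libraries. With HU, neither INO80-FRB Mot1-FRB list held it, and INO80-FRB replicate 1 did (fold 3.07) while replicate 2 did not. At the far end of the same element, at 711960 to 712455, the INO80-FRB Mot1-FRB libraries had fold 2.58 and 3.07, INO80-FRB replicate 1 had fold 2.89, and INO80-FRB replicate 2 had no peak. The upstream edge of the element thus separated the groups and its downstream edge did not.

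At chromosome ends most lost stretches lay in or near Y' element frames. The region with the highest fold of all lost ones, on chromosome VIII, 557038 to 557223, lay 791 bp from YHR218W, a helicase-like frame of a Y' element, and had fold 3.13 and 2.87 in INO80-FRB libraries. It was present in both INO80-FRB lists with HU (3.33 and 2.92), in both WT-FRB lists (1.91 and 2.50), and in neither INO80-FRB Mot1-FRB list with HU. On chromosome VI, 4391 to 4624, 545 bp from YFL064C, the fold was 2.75 and 2.65 in INO80-FRB libraries. That region also had a peak in both Mot1-FRB lists (15.3 and 6.04), in both WT-FRB lists (2.84 and 2.42) and in INO80-FRB replicate 2 with HU (2.88), so Mot1-FRB cells without INO80 depletion did have it. The height of the Mot1-FRB folds cannot be set beside the others. The lowest background in those libraries was 0.307 and 0.647 reads, and their median pileup at chromosome ends was 10 and 14.5 reads. YIL177C on chromosome IX, 3247 to 3491, had 2.69 and 2.20, and YEL077C on chromosome V, 3688 to 3978, had 2.0 and 2.83, both frames of Y' helicases. The last, in YRF1-4 on chromosome XII, 1070049 to 1070422, had 1.86 and 1.84. YRF1-4 therefore held a gained and a lost stretch, and all 8 YRF1 genes had a peak in each of the 4 lists.

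The 7 lost stretches in Ty-length frames lay in YMR050C, YGR027W-B, YOR142W-B, YDR210C-D, YGR161C-D and, as a pair, YJR027W, with fold between 1.76 and 2.65 in the INO80-FRB libraries. The stretch of YMR050C (chromosome XIII, 377416 to 377726) had fold 2.36 and 2.42, and that of YGR027W-B (chromosome VII, 537876 to 538099) had 2.52 and 2.24. The stretch of YOR142W-B (chromosome XV, 595379 to 595715) had 2.05 and 2.65. The stretch of YDR210C-D on chromosome IV, 878678 to 878956, lay at the 3' end of its frame, with 2.39 and 2.13. On YJR027W the lost stretch at 477798 to 478027 of chromosome X had 2.06 and 2.41 and the one at 476153 to 476531 had 1.76 and 2.05. YGR161C-D (chromosome VII, 818858 to 819141) had 2.05 and 1.88. All 6 frames with lost stretches also held shared ones, and YJR027W held a gained one too.

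**Figure D2:**
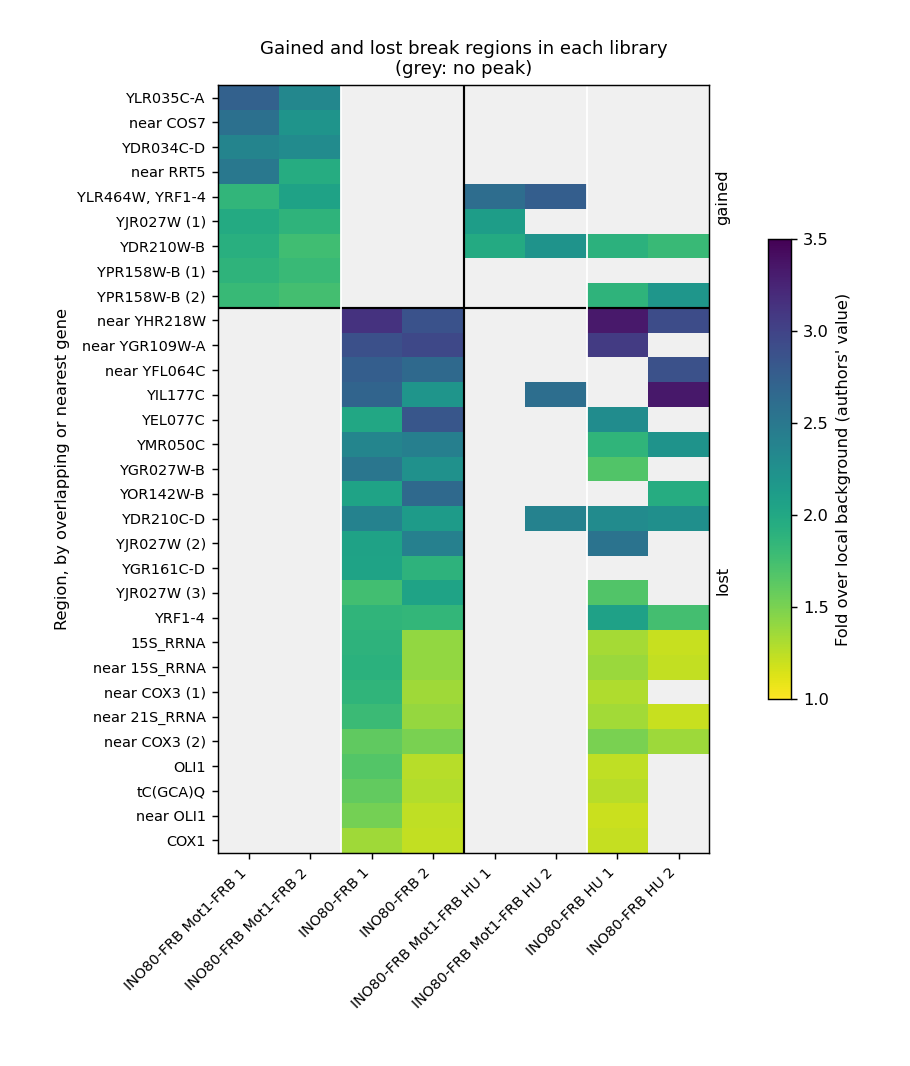
Fold over local background, the authors' value, of the 9 gained (top) and 22 lost regions (rows, named by the overlapping or nearest gene) in the 8 INO80-FRB Mot1-FRB and INO80-FRB libraries without HU (left) and with HU (right); grey marks no peak. The gained regions are pale to mid-scale, and the lost regions have peaks in 18 and 11 of 22 places in the INO80-FRB libraries with HU, against 0 and 2 in INO80-FRB Mot1-FRB libraries with HU.

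The HU libraries were not used to choose the regions, so they give the same places a second time. Of the 22 lost regions, 0 and 2 had a peak in the INO80-FRB Mot1-FRB lists with HU, against 18 and 11 in the INO80-FRB lists with HU. The mean shares were 4.55% and 65.9%, a difference of -61.4 percentage points without overlap between libraries (exact permutation p = 0.333, adjusted p = 0.6, n = 2 each). Over all 401 regions the shares were 40.4% and 32.2% in INO80-FRB Mot1-FRB libraries with HU and 65.3% and 61.8% in INO80-FRB libraries with HU. The double-depletion lists with HU were shorter, 222 and 180 peaks against 358 and 347. With each of these lists limited to its 180 highest-scoring peaks, an alternative chosen after seeing the data, the counts were 0 and 2 against 4 and 4 of 22. The difference was -13.6 percentage points, so the gap was narrower at equal list length. The limit left the list of 180 peaks whole and removed the lowest-scoring peaks mainly from the INO80-FRB lists. The share of all 401 regions under this limit was not computed, so the gap cannot be set against it.

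The gained regions were read in the same way. In the HU lists 3 and 2 of 9 had a peak in INO80-FRB Mot1-FRB libraries and 2 and 2 of 9 in INO80-FRB libraries (exact permutation p = 1.0, n = 2 each). With each list limited to 180 peaks the counts were 3 and 2 against 0 and 1, a difference of 22.2 percentage points without overlap (exact permutation p = 0.333, n = 2 each). That limit again removed low-scoring peaks mainly from the INO80-FRB lists. The share of all 401 regions under it was not computed, so this difference cannot be ascribed to the gained regions in particular. In WT-FRB libraries without HU 5 and 4 of the 9 gained regions and 13 and 11 of the 22 lost regions had a peak. As shares these were 55.6% and 44.4% of gained and 59.1% and 50.0% of lost regions, against 63.6% and 65.3% of all 401 regions, so neither set stood above the rest in WT-FRB cells.

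Mitochondrial DNA was the class with the widest gap between the groups. It held 27 and 10 peaks in the INO80-FRB Mot1-FRB libraries, against 55 and 42 in the INO80-FRB libraries. As a share of peaks that was 8.71% (95% Wilson interval 6.05 to 12.4%) and 3.23% (1.76 to 5.84%) in INO80-FRB Mot1-FRB libraries. The share was 15.1% (11.8 to 19.1%) and 13.2% (9.92 to 17.4%) in INO80-FRB libraries. The groups did not overlap, and the mean difference was -8.17 percentage points, or -5.43 without INO80-FRB Mot1-FRB replicate 2 (exact permutation p = 0.333, adjusted p = 0.6, n = 2 each). Peaks are not independent molecules, and the intervals cover counting error only.

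With HU the order was the same, 10 and 11 mitochondrial peaks in INO80-FRB Mot1-FRB libraries against 47 and 28 in INO80-FRB libraries. Taking both sets of libraries and permuting genotypes within HU status, an analysis added after seeing the data, the mean difference was -28.5 mitochondrial peaks and -6.73 percentage points of share. Each had an exact two-sided permutation p = 0.0556, the smallest that the 36 arrangements can give, and an adjusted p = 0.0973 over 7 such tests (n = 4 each), so neither passed 0.05. All 4 INO80-FRB Mot1-FRB libraries had fewer mitochondrial peaks than any INO80-FRB library, though the closest values were 27 and 28. As shares of their lists the 2 genotypes overlapped across HU status. With HU the shares were 4.5% and 6.11% in INO80-FRB Mot1-FRB libraries and 13.1% and 8.07% in INO80-FRB libraries. INO80-FRB Mot1-FRB replicate 1 without HU, at 8.71%, lay above the last of these in its share of mitochondrial peaks. The WT-FRB libraries held 64 and 27 such peaks without HU and 11 and 32 with HU. Replicates of 1 genotype could thus lie far apart, and the WT-FRB values spanned both groups.

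**Figure D3:**
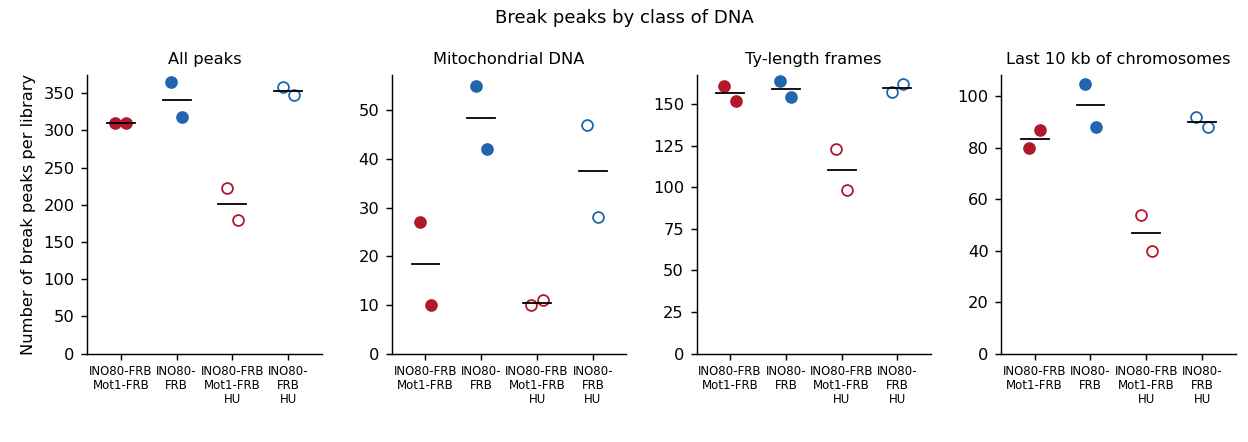
Number of break peaks per library (points; line, mean of 2 libraries; y axes start at 0) in all, on mitochondrial DNA, in Ty-length frames and in the last 10 kb of chromosomes, for INO80-FRB Mot1-FRB (red) and INO80-FRB (blue), filled without HU and open with HU. Mitochondrial peaks number 10 to 27 in the red groups and 28 to 55 in the blue groups.

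The mitochondrial regions of the double depletion were a subset of those in INO80-FRB cells. Of 51 regions, 24 had a peak in INO80-FRB Mot1-FRB replicate 1 and all 24 of these had one in both INO80-FRB lists. Replicate 2 of the double depletion had 10, and those 10 were the regions shared by all 4 lists. Both INO80-FRB lists held 33, 16 more were found only in INO80-FRB replicate 1 and 2 only in INO80-FRB replicate 2. No mitochondrial region was found in the double depletion alone. Peaks covered 19.3% and 10.1% of the mitochondrial genome in INO80-FRB Mot1-FRB libraries and 33.9% and 26.1% in INO80-FRB libraries.

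Mitochondrial peaks were tall in reads and low in fold. Their median fold was 1.32 and 1.3 in INO80-FRB Mot1-FRB libraries, against 1.69 and 1.37 in INO80-FRB libraries. The median recovered pileup was 320 and 333.5 reads in INO80-FRB Mot1-FRB libraries and 293 and 312 reads in INO80-FRB libraries, and the median background 242 and 255 against 161 and 228. These are unscaled reads over different numbers of peaks, and the median pileup lay between 277 and 333.5 in all 12 Break-seq libraries with mitochondrial peaks, so they do not compare the amount of breakage. The lists hold no measure of mitochondrial DNA copies per cell, and the part of background and copy number in the peak count was not tested.

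By gene, 20 and 4 of the 46 mitochondrial genes had a peak in INO80-FRB Mot1-FRB libraries, against 32 and 28 in INO80-FRB libraries. The 4 genes present in INO80-FRB Mot1-FRB replicate 2 were tP(UGG)Q and tM(CAU)Q2, both tRNA genes, ATP6, a subunit of the ATP synthase, and RPM1, the RNA of the enzyme that trims the ends of mitochondrial tRNAs. RPM1 had fold 2.14 and 2.14 in INO80-FRB Mot1-FRB libraries and 2.30 and 1.72 in INO80-FRB libraries, which overlap. ATP6 had fold 1.35 and 1.21 in INO80-FRB Mot1-FRB libraries and 1.71 and 1.37 in INO80-FRB libraries, with no overlap. The INO80-FRB Mot1-FRB lists with HU held peaks in 4 and 4 mitochondrial genes, against 33 and 12 in the INO80-FRB lists with HU.

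The ribosomal RNA genes and the respiratory chain genes were among the places with fewer peaks. The large rRNA gene 21S_RRNA had 3 and 0 peaks in INO80-FRB Mot1-FRB libraries and 4 and 3 in INO80-FRB libraries. The small rRNA gene 15S_RRNA had 1 and 0 peaks against 2 and 2. COX1, the largest subunit of cytochrome oxidase, had 1 and 0 against 4 and 5, and COB, cytochrome b of the bc1 complex, had 2 and 0 against 6 and 2. In each of these genes the INO80-FRB Mot1-FRB replicate 2 list was empty and replicate 1 was at or below the lower INO80-FRB library. COX2 and COX3, the other mitochondrial subunits of cytochrome oxidase, and VAR1, a protein of the mitochondrial ribosome, each had 1 and 0 peaks against 1 and 1.

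The 9 lost mitochondrial regions had a fold of 1.36 to 1.9 in INO80-FRB replicate 1 and 1.23 to 1.5 in INO80-FRB replicate 2. The 10 shared ones had 1.70 to 3.22 and 1.37 to 2.25 in the same libraries, so the ranges overlapped. The lost regions were not all lower than listed ones: INO80-FRB Mot1-FRB replicate 1 listed the region that starts at 37890, of fold 1.35 and 1.2 in INO80-FRB libraries. The one in 15S_RRNA (6545 to 6921 of the mitochondrial genome) had fold 1.88 and 1.41 in INO80-FRB libraries. OLI1, the ring subunit of the ATP synthase, held one at 46730 to 47006 with 1.67 and 1.27. A region over the tRNA genes tC(GCA)Q and tH(GUG)Q, at 64401 to 64702, had 1.60 and 1.29. The widest, 13720 to 16318, covered the first part of COX1 and the intron frames AI1 to AI5_ALPHA that start with it, with 1.36 and 1.23. The other 5 lay between genes, 1 near 15S_RRNA, 1 near 21S_RRNA, 1 near OLI1 and 2 near COX3. All 9 had a peak in INO80-FRB replicate 1 with HU and in WT-FRB replicate 1, and none in the INO80-FRB Mot1-FRB lists with HU. The other replicates held fewer. The regions that start at 46730, 64401, 45599 and 13720 had no peak in INO80-FRB replicate 2 with HU or in WT-FRB replicate 2. The region that starts at 80536 also had none in INO80-FRB replicate 2 with HU. In WT-FRB replicate 1 with HU only the region that starts at 82327 had a peak.

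**Figure D4:**
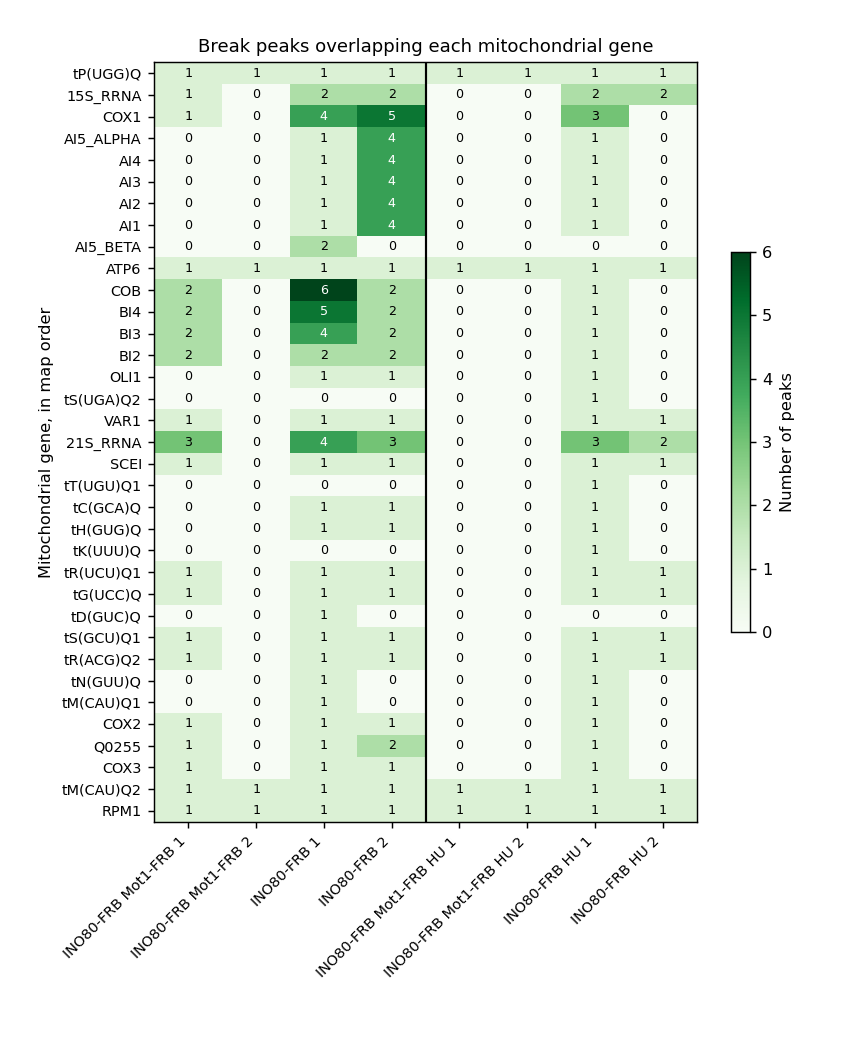
Number of break peaks that overlap each mitochondrial gene with a peak in any list (rows, in map order; genes that overlap share peaks) in the INO80-FRB Mot1-FRB and INO80-FRB libraries without HU (left of the line) and with HU (right). Peaks touch 20 and 4 genes in INO80-FRB Mot1-FRB libraries and 32 and 28 in INO80-FRB libraries without HU, and tP(UGG)Q, ATP6, tM(CAU)Q2 and RPM1 have a peak in all 8.

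Counted by gene instead of by region, 3 of 6477 genes were gained (0.0463%) and 10 were lost (0.154%), of 202 with a peak in any of the 4 lists, while 113 were shared. The lost genes were AI1, AI2, AI3, AI4, AI5_ALPHA, OLI1, tC(GCA)Q and tH(GUG)Q of the mitochondria, which rest on 3 regions, and YMR051C and YOR142W-A, short frames that share their start with the Ty frames named above. The gained genes were YLR464W, YGR109W-B and TRP1. TRP1, an enzyme of tryptophan synthesis that lies beside the origin ARS1, had a different stretch in each INO80-FRB Mot1-FRB library, at 462184 to 462352 of chromosome IV with fold 2.82 in replicate 1 and at 461856 to 462153 with fold 2.06 in replicate 2. It therefore counts by gene and not by region. For YGR109W-B the call rests on where peak edges fall, since the INO80-FRB replicate 1 peak at its far end, with fold 2.89, lay just outside the frame.

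Ty-length frames are 40 reading frames without a gene name of 5251 to 5410 bp, about the length of a Ty1 or Ty2 Gag-Pol frame. They held 51.9% and 49.0% of peaks in INO80-FRB Mot1-FRB libraries and 44.9% and 48.4% in INO80-FRB libraries. The groups did not overlap, and the mean difference was 3.8 percentage points (exact permutation p = 0.333, adjusted p = 0.6, n = 2 each). With the HU libraries, where the shares were 55.4% and 54.4% against 43.9% and 46.7%, the difference was 6.7 points (exact permutation p = 0.0556, adjusted p = 0.0973, n = 4 each). These shares count mitochondrial peaks in the total, and those were fewer in the double depletion. Of nuclear peaks without HU, the frames held 161 of 283 and 152 of 300 in INO80-FRB Mot1-FRB libraries. In INO80-FRB libraries they held 164 of 310 and 154 of 276, so as nuclear shares the groups overlapped. With HU the nuclear shares did not overlap, with 123 of 212 and 98 of 169 against 157 of 311 and 162 of 319. In numbers the frames were alike without HU: 4.03 and 3.80 peaks per frame in INO80-FRB Mot1-FRB libraries and 4.10 and 3.85 in INO80-FRB libraries. The same 38 of 40 frames had a peak in each of the 4 lists, and peaks covered 40.3% and 34.2% of their bases against 39.4% and 34.8%.

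Within the frames, the place of the peaks differed between these lists, which is described here without a test. The first base of a frame had a peak in 0 of 40 frames in every library, and peaks began further inside. At the last base of the frame 12 and 7 of 40 frames had a peak in INO80-FRB Mot1-FRB libraries, against 24 and 21 in INO80-FRB libraries. With HU the counts were 9 and 10 against 30 and 28. In WT-FRB libraries without HU they were 0 and 6, and with HU 4 and 8. Every INO80-FRB library thus had a peak over the 3' end of more frames than any INO80-FRB Mot1-FRB library, and every INO80-FRB Mot1-FRB library but replicate 2 without HU had more than each WT-FRB library.

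This place was chosen after the profile along the frames was seen, so the counts are a description, with no test. A little upstream, 4700 to 4800 bp into the frame, 25 and 23 frames had a peak in INO80-FRB Mot1-FRB libraries and 26 and 25 in INO80-FRB libraries, so without HU the gap was narrow there. With HU that stretch had 17 and 22 against 31 and 31. In 100-bp bins along the frames, 11 of 54 bins had more frames with a peak in both INO80-FRB Mot1-FRB libraries than in either INO80-FRB library, and 11 had fewer. Of the first 11, 10 lay between 2300 and 3800 bp into the frame. At 2300 to 2400 bp, 25 and 16 frames had a peak in INO80-FRB Mot1-FRB libraries against 11 and 6 in INO80-FRB libraries.

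With HU the double depletion was lower along most of the frame: in 44 of all 54 bins both INO80-FRB Mot1-FRB libraries lay below both INO80-FRB libraries, and in 0 above. In none of the 11 bins with more frames in the double depletion did the INO80-FRB Mot1-FRB libraries with HU lie above the INO80-FRB libraries with HU, and in 6 of them they lay below both. At 2300 to 2400 bp the counts with HU were 3 and 3 against 10 and 11. In 10 of the 11 bins with fewer frames in the double depletion, they also lay below both INO80-FRB libraries with HU. Against 44 of all 54 bins, 10 of 11 is near the share over the whole frame and 6 of 11 is lower. The lists with HU were shorter in the double depletion, and whether the stretches differ with HU was not tested. Ty frames are near-identical copies, so these counts describe the family rather than single elements.

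**Figure D5:**
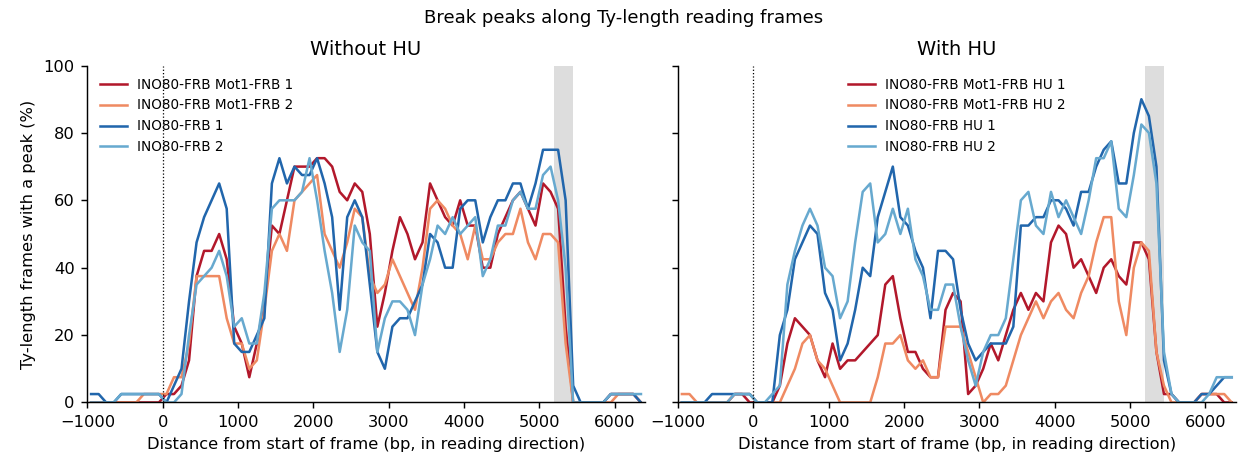
Percentage of the 40 Ty-length frames with a break peak (y axis) by distance from the start of the frame in reading direction (x axis, 100-bp bins), for INO80-FRB Mot1-FRB (red, orange) and INO80-FRB (blue, light blue) libraries without HU (left) and with HU (right). The grey band marks where the frames, of 5251 to 5410 bp, end: there the blue lines stay high further than the red, with a peak over the last base in 24 and 21 frames against 12 and 7 without HU.

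Shares at chromosome ends, Orc5 sites and promoters overlapped between the groups. Chromosome ends held 25.8% and 28.1% of peaks in INO80-FRB Mot1-FRB libraries and 28.8% and 27.7% in INO80-FRB libraries, a difference of -1.28 points (exact permutation p = 0.667, adjusted p = 0.75, n = 2 each). Orc5 sites held 10.2% and 14.7% of nuclear peaks in INO80-FRB Mot1-FRB libraries and 13.2% and 9.42% in INO80-FRB libraries. The difference of 1.13 points (exact permutation p = 0.667, adjusted p = 0.75, n = 2 each) took the other sign, -1.08 points, without INO80-FRB Mot1-FRB replicate 2 and -0.769 points without INO80-FRB replicate 2. Promoters held 8.48% and 11.7% against 8.71% and 7.61%, a difference of 1.91 points (exact permutation p = 0.667, adjusted p = 0.75, n = 2 each). Among peaks outside the 4 classes the promoter share was 28.2% and 39.7% in INO80-FRB Mot1-FRB libraries and 27.0% and 20.7% in INO80-FRB libraries, a difference of 10.1 points without overlap (exact permutation p = 0.333, n = 2 each). The Orc5 share of those peaks, 20.5% and 39.7% against 32.4% and 20.7%, overlapped. At both kinds of site INO80-FRB Mot1-FRB replicate 2 was the highest of the 4 libraries. With 2 libraries a group none of these differences could pass the test.

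The places with the highest peaks were shared. The highest lay beside the ribosomal DNA array, over YLR162W and RRT15 on chromosome XII, 489752 to 490473, with fold 9.37 and 7.39 in INO80-FRB Mot1-FRB libraries and 11.3 and 12.7 in INO80-FRB libraries. A region near a tRNA gene on chromosome III, 151562 to 151850, had fold 5.96 and 5.73 against 6.93 and 7.90. The left end of chromosome XII, 85 to 530, had 5.69 and 7.99 against 4.99 and 4.99. The first 2 of these were lower in fold in both INO80-FRB Mot1-FRB libraries and the last higher in both. Unscaled recovered reads were not lower at the first, 294 and 323 against 284 and 298, or at the second, 73 and 126 against 71 and 71. At the last they were 117 and 203 against 103 and 84. A fold sets a peak against its own library's background and was not tested between groups.

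Of the other 3 of the 6 highest shared regions, YLR256W-A had fold 5.32 and 3.66 in INO80-FRB Mot1-FRB libraries and 6.07 and 5.49 in INO80-FRB libraries. The Y' frame YHR219W had 4.97 and 3.70 against 5.40 and 6.19, and a region on chromosome XVI, 560491 to 560755, had 5.00 and 4.11 against 5.49 and 5.6. All 3 were lower in fold in both libraries of the double depletion. Recovered reads, which are unscaled, were higher there at YLR256W-A (65 and 80 against 62 and 49) and at the chromosome XVI region (61 and 90 against 56 and 50). At YHR219W they were lower, 84 and 81 against 90 and 90. The next shared regions outside the 4 classes include tandem repeats inside genes or in clusters. FLO1, a cell-wall flocculin, had 3.95 and 4.20 against 4.72 and 3.29, and NUM1, a cortical protein that holds dynein and mitochondria, had 3.93 and 2.94 against 3.48 and 4.39. The copper metallothionein cluster of CUP1 had 3.01 and 2.75 against 3.36 and 3.29. FLO1 and NUM1 overlapped between the groups and CUP1 did not. The flanking stretches of YLR035C-A had 4.74 and 3.73 against 3.86 and 5.03 and, on the other side, 3.11 and 2.73 against 3.74 and 3.71. YAR009C, a Ty1 frame shorter than the class, had 3.05 and 2.61 against 3.93 and 3.97.

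Gene families were read by how many members had a peak in INO80-FRB Mot1-FRB replicates 1 and 2, then in INO80-FRB replicates 1 and 2. Ribosomal DNA genes had 6 and 5 of 14, against 5 and 5. Flocculins had 1 and 3 of 5, against 2 and 1. Both CUP1 genes had a peak in all 4 lists. These counts overlapped or were equal between the groups.

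The ENA sodium pumps had 1 and 0 of 3 with a peak, against 0 and 2. COS genes had 1 and 0 of 12, against 0 and 0. Hexose transporters had 0 and 1 of 17, and PAU cell-wall genes 0 and 1 of 24, each against 0 and 0. Nuclear tRNA genes had 0 and 2 of 275, and glycolytic and other highly transcribed genes 0 and 1 of 11, again against 0 and 0. The genes for TBP and its regulators (18), for subunits of INO80 (13) and for histones (9) had no peak in any of the 4 lists. Over all 6477 genes 3.12% had a peak in any of them.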

How the data were processed

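Break-seq libraries of INO80-FRB Mot1-FRB and INO80-FRB cells were compared through the peak lists the authors deposited, 1 per library and not pooled. Per the submitters' processing notes, Bowtie2 and the build sacCer3 were used; their versions and the peak caller are not given in the sources. Every deposited peak comes with its score, its fold over nearby background (a ratio), −log10 of a p-value and of a q-value, and a summit offset. Orc5 ChIP-seq peaks without rapamycin were deposited as positions. Depth is unknown. A Poisson model recovered the pileup and background of each peak from the deposited fold and −log10 p. Whole pileups fitted 100% of peaks within 0.001 on that −log10 scale.

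Peaks overlapping by 1 bp were merged with Python 3.11.15, pandas 2.3.3 and numpy 2.4.6. Classes were Ty-length frames (40 frames), ribosomal DNA, the last 10 kb of chromosomes, mitochondrial DNA, 1412 Orc5 sites of up to 10 kb with 500 bp on each side, and promoters of 500 bp, from a table of 6477 genes (assembly R64). Chromosome lengths were taken as the highest coordinate in that table or the lists. Strand came from systematic gene names. Groups were compared with exact permutation tests (scipy 1.17.1) and Benjamini-Hochberg adjustment over 9 tests. On simulated lists of 500 regions, all 20 gained and 30 lost regions planted were recovered. Those regions were planted far apart and with no peak missing, unlike the real ones, so this checks the merging and counting and not how reliable the calls are. Named regions were all gained ones, the 12 lost ones with the highest mean fold and the 1 outside the 4 repeat classes, the 6 highest shared regions and 6 more outside those classes; the other lost regions and single-library genes were added after their values were seen. Members and gene lists were chosen with earlier results of these data known. Same-numbered replicates did not deviate together (r = -0.051 over 172 shared regions). NET-seq, Arp5 and Orc5 with rapamycin were not analysed here.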

Additional observations from a re-analysis of the deposited data

Results flagged for a closer look

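The share of break peaks in Ty-length frames differed in direction between genetic backgrounds. Added to INO80 depletion, Mot1 depletion gave 51.9% and 49.0% against 44.9% and 48.4%, a difference of 3.8 percentage points. In otherwise wild-type cells, the share was 20% and 21.4% in Mot1-FRB libraries and 24.9% and 45.8% in WT-FRB libraries, a difference of -14.6 points. As a share of all peaks, mitochondrial ones included, Mot1 depletion lay wholly above its counterpart in the INO80-depleted background and wholly below it in the other. As a share of nuclear peaks alone, the groups in the INO80-depleted background overlapped, so the direction there rests on the total used. The difference between these effects was not tested, and the Mot1-FRB lists hold only 40 and 14 peaks.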

How the results depend on the processing

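Of 95 alternatives, 74 kept the direction and side of the threshold (for counts, within 1.5 times); sizes still moved, from 1.91 to 10.1 points for promoters outside the 4 classes, and, as chosen after seeing the data, to -13.6 for lost and 22.2 for gained regions in HU lists of equal length. Merging peaks up to 1000 bp apart left 4 gained, 5 lost and 82 shared regions; peaks above the median score of their list gave 10 lost and 81 shared; leaving out the 4 repeat classes named above gave 3 gained, 1 lost and 16 shared. Leaving out 1 library gave 13 to 55 gained regions (55 without INO80-FRB Mot1-FRB replicate 1, 34 without its replicate 2, 18 without INO80-FRB replicate 1), 29 to 71 lost (57 without INO80-FRB Mot1-FRB replicate 1, 35 and 71 without INO80-FRB replicates 1 and 2) and 178 to 206 shared, since fewer lists must then agree. The other sign appeared for chromosome ends with peaks above the median score (2.19 points) and the last 20 kb (0.123), for Orc5 sites (-4.14) and promoters (-2.86) with peaks above the median score, and for gained regions in HU lists within 500 bp (-11.1). Orc5 sites ranged from -1.08 to 3.34 points with 1 library left out. The causes were not tested.

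A replicate block, with same-numbered libraries as pairs, cannot change the 9 gained, 22 lost and 172 shared regions or the mean differences. Only its exact permutation p could differ, and it ran from 0.5 to 1.0 (n = 2 pairs). The numbers did not pair the samples. Without read totals, a peak missing from a list cannot be told from one just under the caller's threshold.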
